A study of Mus musculus with 9 samples.

Results

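DNA methylation in the mouse hippocampus was followed at the level of 9 genes that write, erase or read the mark: the writers Dnmt1, Dnmt3a and Dnmt3b with their partner Uhrf1, the erasers Tet1, Tet2 and Tet3, and the readers Mbd1 and Mbd2. They were taken by gene name from deposited tables of 54532 genes, and all 9 were found. RNA sequencing had been carried out on 9 hippocampi from mice labelled as male, bought at 6 to 8 weeks of age and described as C57BL/6, in groups of 3. Con mice received a standard diet, and HMD mice received a diet with excess methionine for 8 weeks. Bet+HMD mice received that diet for 8 weeks and then 2.5% (w/v) betaine in the drinking water for 2 weeks, and whether the diet went on during the betaine weeks is unclear. In this group 1 library carries the strain label C57BL/6, and the others carry C57BL/7 and C57BL/8. The Con and HMD libraries carry no strain label of their own. The labels do not state that the libraries of a group came from separate animals, so P values measure the spread between these libraries, which may be technical. In bulk tissue, fewer cells of a type and less RNA per cell cannot be told apart.

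Methylated cytosine in CpG dinucleotides is copied after DNA replication by Dnmt1, which Uhrf1 guides to the half-methylated strand, and is placed anew by Dnmt3a and Dnmt3b. Tet dioxygenases oxidise the methyl group, after which base excision repair can restore an unmodified cytosine. Proteins with a methyl-CpG binding domain, among them Mbd1 and Mbd2, dock on the mark and bring co-repressors. The methyl group comes from S-adenosylmethionine, which is made from methionine, and betaine returns homocysteine to methionine. In postmitotic neurons Dnmt1 and Dnmt3a are the writers known to be in use, while Dnmt3b belongs mainly to the early embryo.

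The Bet+HMD libraries stood apart from the others. They are present in the later of the 2 deposited tables alone, so anything else that sets these libraries apart and the effect of betaine cannot be told apart. All 7 RNAs of a list of nuclear-retained transcripts were higher in them than in HMD, with a summed level of 903 to 957 FPKM (fragments per length of gene and depth of library) against 99.0 to 144 in HMD and 84.3 to 139 in Con. Genes with long transcripts were also shifted: the 2737 longest genes tested, of 7328 bases or more, had a median log2 fold change of 0.09 between Bet+HMD and HMD, against -0.06 in the 2736 shortest. Of the 9 genes studied here, 5 are of that length, namely Dnmt1, Dnmt3a and the 3 Tet genes. In HMD, the summed level of 5 thalamus markers was 16.1 to 55.4 FPKM in the earlier table, against 10.4 to 12.3 in Con, and its part in the results was not tested. Of the 4 thalamus markers tested, 2 were called lower in Bet+HMD than in HMD. In the later table the summed markers of neurons (743 to 755 FPKM in Bet+HMD and 807 to 984 in HMD), astrocytes (195 to 196 and 227 to 248), endothelium (32.5 to 34.2 and 37.1 to 38.4) and red blood cells (72.2 to 122 and 149 to 233) were also lower in each Bet+HMD library than in any HMD library, and their part was not tested either. Not every marker followed its sum: 1 of 6 neuron, 2 of 5 astrocyte and 1 of 4 endothelium markers had a positive log2 fold change. Markers of hippocampal neurons were present in every group, summing there to 191 to 214 FPKM in Con, 158 to 198 in HMD and 175 to 181 in Bet+HMD. Libraries held between 16031464 and 18566712 reads assigned to genes over both tables.

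Of the 9 genes, Dnmt1, Dnmt3a and Tet2 were called higher in Bet+HMD than in both other groups (adjusted P under 0.05 by limma). The sequence before a transcript start of each is shown for its content of CpG, the dinucleotide on which these enzymes act. Windows of 250 bases upstream were read from RefSeq (GRCm38.p6) for the 7 genes matched there, and for a gene with several transcript starts the window richest in CpG is printed, 5′ to 3′ on the gene's strand, with each CpG in capitals.
Dnmt1: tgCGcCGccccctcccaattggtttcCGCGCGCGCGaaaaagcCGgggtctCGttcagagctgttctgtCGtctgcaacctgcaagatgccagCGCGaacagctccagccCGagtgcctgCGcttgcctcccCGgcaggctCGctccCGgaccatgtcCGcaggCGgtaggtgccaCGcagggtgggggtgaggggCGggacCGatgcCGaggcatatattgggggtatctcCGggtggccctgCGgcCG
Dnmt3a: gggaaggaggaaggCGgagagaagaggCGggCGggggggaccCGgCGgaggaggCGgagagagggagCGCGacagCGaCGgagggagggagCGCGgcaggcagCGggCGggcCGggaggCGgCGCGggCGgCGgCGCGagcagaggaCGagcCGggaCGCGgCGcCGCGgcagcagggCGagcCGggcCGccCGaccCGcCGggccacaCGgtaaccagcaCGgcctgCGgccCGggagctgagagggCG
Tet2: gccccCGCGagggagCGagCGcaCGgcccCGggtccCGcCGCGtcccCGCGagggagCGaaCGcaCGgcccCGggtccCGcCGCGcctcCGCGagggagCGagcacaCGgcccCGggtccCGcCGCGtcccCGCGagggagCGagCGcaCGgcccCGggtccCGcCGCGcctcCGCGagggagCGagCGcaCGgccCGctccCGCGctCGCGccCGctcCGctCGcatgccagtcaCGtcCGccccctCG
The Dnmt1 window lies at chr9:20952624-20952873 on the minus strand, that of Dnmt3a at chr12:3806910-3807159 on the plus strand and that of Tet2 at chr3:133544391-133544640 on the minus strand. All 3 lie inside the annotated span of their gene, before the start of a RefSeq transcript and not before the outermost annotated start. The Dnmt1 window lies downstream of the other listed starts of that gene, the nearer of which has its own window at chr9:20952980-20953229. The Tet2 window held 51 CpGs, and 0.067% of 32817 windows of the same length held as many. Much of the printed Tet2 sequence is a short stretch repeated with small differences, and many of its CpGs lie in those repeats. The Dnmt3a window held 40 (1.31% of windows held as many) and the Dnmt1 window held 26 (9.60%), where the median window held 6. For Dnmt3a and Dnmt1 this sets the richest of 3 starts against single windows, which favours a high place. Other starts of the same genes had fewer: 38 and 15 for Dnmt3a, and 7 (46.3% of windows held as many) and 2 for Dnmt1. The Dnmt3a window with 38, at chr12:3806730-3806979, overlaps the printed one, so some CpGs are counted in both. The richest windows of the other matched genes held 30 CpGs for Uhrf1, 21 for Dnmt3b, 17 for Tet3 and 15 for Tet1. These are counts of letters, and methylation at the sites was not measured in these files.

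The genes differed widely in level in the Con hippocampus. In the earlier table, Mbd2 was the highest at 15.3 ± 0.97 FPKM (SD, n = 3), followed by Mbd1 at 6.10 ± 0.54 and Dnmt1 at 5.32 ± 0.14. Dnmt3a (3.66 ± 0.32 FPKM) and Tet3 (3.57 ± 0.46 FPKM) came next, and their libraries overlapped. Tet2 lay at 1.96 ± 0.30 FPKM and Tet1 at 1.10 ± 0.16 FPKM. Uhrf1 (0.20 ± 0.077 FPKM) and Dnmt3b (0.14 ± 0.069 FPKM) were lowest and overlapped each other, while all other neighbours in this order did not overlap. Dnmt1 thus made up 58.4% of the summed writer level and Dnmt3a 40.1%, with 1.58% left for Dnmt3b. Among the Tet enzymes, Tet3 made up 53.9%, Tet2 29.5% and Tet1 16.7%. FPKM is a level per length, so that genes of unlike length can be set side by side.

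The 3 writers and Uhrf1 lie on 4 chromosomes. On GRCm38, Dnmt1 (ENSMUSG00000004099) spans chromosome 9 from 20907209 to 20959888 on the minus strand, Dnmt3a (ENSMUSG00000020661) chromosome 12 from 3806007 to 3914443 on the plus strand, and Dnmt3b (ENSMUSG00000027478) chromosome 2 from 153649450 to 153687730 on the plus strand. Uhrf1 (ENSMUSG00000001228) spans chromosome 17 from 56303321 to 56323486 on the plus strand. The erasers are on the minus strand: Tet1 (ENSMUSG00000047146) on chromosome 10 from 62804570 to 62908996, Tet2 (ENSMUSG00000040943) on chromosome 3 from 133463679 to 133545139, and Tet3 (ENSMUSG00000034832) on chromosome 6 from 83362373 to 83459084. Each value covers the whole protein-coding gene. Genes that overlap a member, some on the opposite strand, had at most 14 reads in any library of the later table. The gene with these 14 reads overlaps Tet3, which had 838 to 1242 reads.

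The readers Mbd1 (ENSMUSG00000024561) and Mbd2 (ENSMUSG00000024513) both lie on the plus strand of chromosome 18, the first from 74267605 to 74282732 and the second from 70568189 to 70626131. No other listed gene overlapped either of them.

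**Figure D1:**
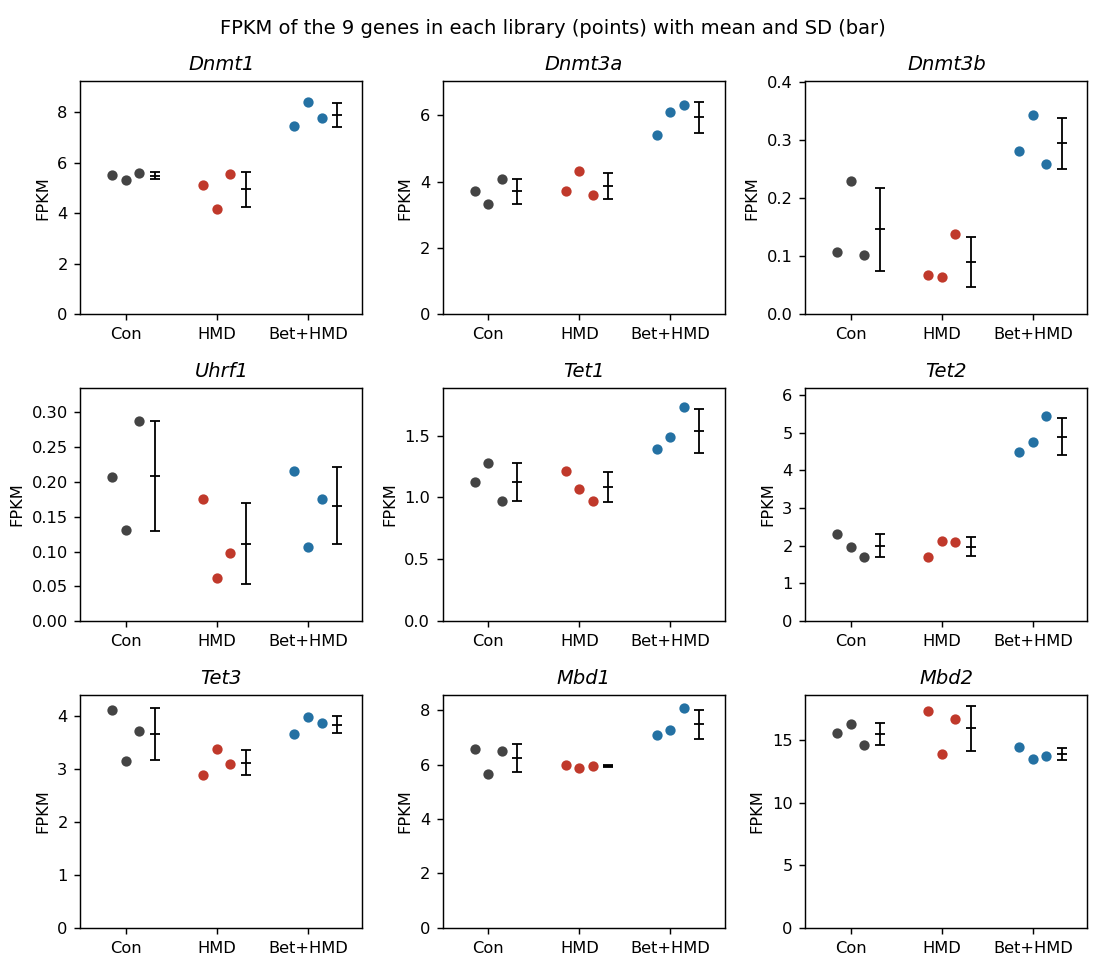
FPKM of the 9 genes in each library of the later table (points, one panel per gene, each axis starting at 0), with mean and SD of the 3 libraries beside them. Bet+HMD points sit above all others for Dnmt1, Dnmt3a, Dnmt3b, Tet1, Tet2 and Mbd1, whereas Con and HMD points overlap in all panels.

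HMD was set against Con to ask what excess methionine does to the transcripts of this machinery, and no member differed beyond the spread between libraries. The 7 genes with a mean of at least 1 FPKM were tested, and 0 of 7 passed an adjusted P of 0.05 (limma, Benjamini-Hochberg over all 12989 genes tested). Over all genes the called share was 0% at that threshold and 4.56% at an unadjusted P under 0.05, where the members again gave 0 of 7, as they did with limma voom on the recovered reads at the adjusted threshold. Groups overlapped for every member, whereas 9.37% of all genes did not overlap. Besides thalamus, the summed markers of endothelium did not overlap (36.7 to 37.9 FPKM in HMD and 41.3 to 43.1 in Con), and their part was not tested. Of the 4 endothelium markers, 1 went the other way, with a positive log2 fold change.

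Dnmt1 in HMD was 5.16, 4.12 and 5.45 FPKM in replicates 1 to 3, and in Con it was 5.37, 5.17 and 5.43 FPKM. The second HMD library was the low one, while the third lay above all Con libraries. The log2 fold change was -0.10 (SE 0.12, 95% interval -0.38 to 0.17). Dnmt3a was 3.64, 4.17 and 3.57 FPKM in HMD and 3.69, 3.32 and 3.97 FPKM in Con, with a log2 fold change of 0.04 (interval -0.22 to 0.30). In neither writer did the diets separate.

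Tet3 had the largest difference of the 7 genes. It was 2.86, 3.34 and 3.05 FPKM in HMD and 4.01, 3.09 and 3.62 FPKM in Con, a log2 fold change of -0.16 (SE 0.12, interval -0.44 to 0.12, adjusted P = 0.980 by limma). Overlap came from the second Con library, which was the lowest of its group. Tet2 was 1.67, 2.08 and 2.07 FPKM in HMD against 2.26, 1.96 and 1.65 FPKM in Con, with a log2 fold change of -0.0081. Tet1 differed by -0.04 on the same scale, from 1.10 ± 0.16 to 1.04 ± 0.12 FPKM.

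Readers were as close. Mbd1 was 5.96, 5.69 and 5.87 FPKM in HMD and 6.48, 5.48 and 6.33 FPKM in Con (log2 fold change -0.05). Mbd2 was 17.2, 14.1 and 16.3 FPKM in HMD and 15.5, 16.2 and 14.3 FPKM in Con (log2 fold change 0.04). The widest of the 7 intervals, that of Tet1, ran from -0.36 to 0.28, and a change of the size seen with betaine in Tet2 lies outside the intervals of all 7 genes. The later table, which holds the same samples at slightly different read counts, gave the same absence of calls.

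Bet+HMD was then set against HMD to ask what followed betaine, and Dnmt1, Dnmt3a, Tet2 and Mbd1 were higher. These 4 of the 7 tested members passed the adjusted P of 0.05, all upwards, which is 57.1% where 22.8% of all 13672 genes tested were called higher. Called lower were 0 members, also at an unadjusted P under 0.05, against 25.5% of all genes at the adjusted threshold. None of the members reached an absolute log2 fold change of 1 together with the adjusted P, against 8.93% of all genes. Groups did not overlap for 6 of 7 members, against 60.1% of all genes, so separation alone was common.

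Of the 7 genes tested, Tet2 had the largest log2 fold change. Its level was 4.48, 4.75 and 5.44 FPKM in Bet+HMD and 1.69, 2.13 and 2.11 FPKM in HMD. The lowest Bet+HMD library thus lay far above the highest HMD library. The log2 fold change was 0.98 (SE 0.11, 95% interval 0.74 to 1.23, adjusted P = 0.000427 by limma), and the ratio of the mean FPKM was 2.47. On a scale that adds 0.1 in place of 1 before the logarithm it was 1.27. Reads per library were 1313 to 1598 against 495 to 602.

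Dnmt1 was 7.45, 8.38 and 7.78 FPKM in Bet+HMD and 5.12, 4.18 and 5.55 FPKM in HMD. The 3 Bet+HMD libraries were close to each other and all above HMD, and the log2 fold change was 0.58 (SE 0.10, interval 0.34 to 0.83, adjusted P = 0.00362 by limma). Dnmt3a, the de novo writer, was 5.41, 6.11 and 6.30 FPKM in Bet+HMD and 3.70, 4.32 and 3.59 FPKM in HMD. Here the groups were likewise apart, and the difference was 0.51 on the log2 scale (SE 0.094, interval 0.29 to 0.73), with an adjusted P of 0.00395 by limma.

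Tet3 and Tet1 did not pass. Tet3 was 3.65, 3.97 and 3.86 FPKM in Bet+HMD and 2.89, 3.37 and 3.09 FPKM in HMD, which do not overlap, with a log2 fold change of 0.23 (interval 0.034 to 0.43) and an adjusted P of 0.0549 by limma. Leaving out the second HMD library brought the adjusted P of Tet3 to 0.0296. Tet1 was 1.39, 1.48 and 1.73 FPKM against 1.21, 1.07 and 0.97 FPKM, a log2 fold change of 0.28 with an adjusted P of 0.0862 by limma. Tet1 passed when the values were rescaled to TPM, which gives every library the same total, in a model of the recovered reads and without the intensity trend, and Tet3 passed in these and with median centring.

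Mbd1 rose, and Mbd2 did not pass the test. Mbd1 was 7.08, 7.27 and 8.08 FPKM in Bet+HMD and 5.97, 5.89 and 5.94 FPKM in HMD. The HMD libraries were nearly equal and all lower, 0.29 apart on the log2 scale (SE 0.075) at an adjusted P of 0.0167 by limma, but this call was lost without the second Bet+HMD library (adjusted P = 0.0516) or without the third (0.0719). Mbd2 was 14.4, 13.5 and 13.7 FPKM in Bet+HMD and 17.3, 13.9 and 16.7 FPKM in HMD, which overlap through the second HMD library. Its log2 fold change was -0.18 (interval -0.40 to 0.037, adjusted P = 0.144 by limma), and without that HMD library it was -0.27 with an adjusted P of 0.0133.

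The way libraries were scaled moved these values. Under TPM the median gene shifted from -0.03 to 0.16 and 69.5% of all called genes were higher, against 47.2% in the values reported, and in the model of recovered reads 57.3% were higher. Relative to that median, Tet2 differed by 1.22, Dnmt1 by 0.68, Dnmt3a by 0.61 and Mbd1 by 0.35 under TPM. Mbd2 reversed to 0.0051 under TPM, or -0.15 relative to the median. With the trend on gene length removed, Tet2 (0.78), Dnmt1 (0.53), Dnmt3a (0.31) and Mbd1 (0.25) were still called, while Tet1 stood at 0.10 and Tet3 at 0.03. Nuclear-retained RNA moved with the group, and its part in these differences cannot be told apart from that of betaine.

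**Figure D2:**
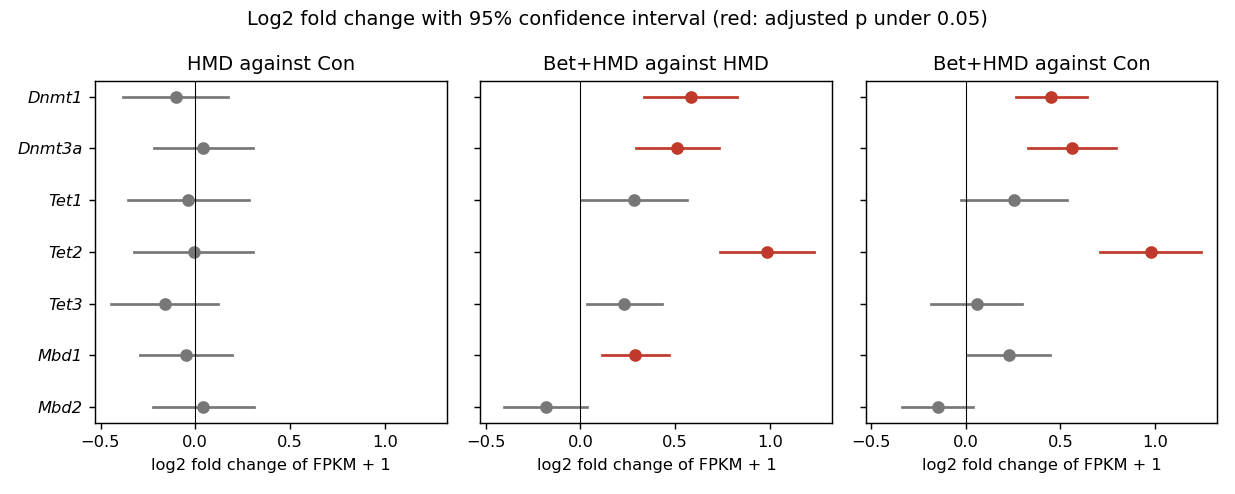
Log2 fold change on the log2(FPKM + 1) scale (points) with 95% confidence interval (lines) for the 7 tested genes in 3 comparisons, where red marks an adjusted P under 0.05. In HMD against Con all intervals cross 0, and Tet2 has the highest point in both Bet+HMD comparisons at 0.98.

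Against Con, Bet+HMD was again higher for Tet2, Dnmt1 and Dnmt3a. This comparison shares the Bet+HMD libraries with the former one, so the values stand side by side and are no second line of evidence. Called higher were 3 of 7 members (42.9%), against 19.4% of all 13643 genes tested, and called lower were 0, against 20.4%. None combined the adjusted P with an absolute log2 fold change of 1, against 8.74% of all genes, and 6 of 7 did not overlap, against 55.1%. Beside these values, the summed markers of hippocampal neurons (175 to 181 FPKM in Bet+HMD and 191 to 214 in Con), neurons (743 to 755 and 765 to 923), astrocytes (195 to 196 and 228 to 235), microglia (59.7 to 63.4 and 69.4 to 85.9), endothelium (32.5 to 34.2 and 42.0 to 44.1) and dividing cells (4.30 to 5.35 and 5.50 to 6.79) were lower in each Bet+HMD library than in any Con library, those of thalamus (13.0 to 14.3 and 10.6 to 12.6) were higher, and their part was not tested. Single markers did not all follow their sums. The log2 fold change was positive in 1 of 6 neuron, 1 of 5 astrocyte and 1 of 4 endothelium markers. It was negative in 1 of 3 thalamus markers tested. Among hippocampal neuron markers Fibcd1 was lower (13.0 to 13.5 and 31.4 to 40.5) and Zbtb20 higher (13.9 to 15.6 and 8.39 to 10.1). Among dividing-cell markers Mcm6 was lower (2.54 to 2.79 and 3.15 to 4.25) and Mki67 higher (0.445 to 0.481 and 0.296 to 0.392). Of all called genes 48.8% were higher, which became 73.5% under TPM and 59.0% in the model of recovered reads.

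Tet2 was 2.31, 1.97 and 1.71 FPKM in the Con libraries of the later table, all below the 4.48 of the lowest Bet+HMD library. The log2 fold change was 0.98 (SE 0.11, interval 0.71 to 1.24, adjusted P = 0.00108 by limma). Dnmt3a was 3.71, 3.33 and 4.08 FPKM in Con, which gave 0.56 (SE 0.098, adjusted P = 0.00486 by limma). With the length trend removed Dnmt3a stood at 0.31 and was no longer called (adjusted P = 0.0824). Dnmt1 was 5.52, 5.32 and 5.59 FPKM in Con, which lie close together, and differed by 0.45 (SE 0.078, adjusted P = 0.00470 by limma).

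The other members were not called against Con. Mbd1 was 6.57, 5.66 and 6.50 FPKM in Con, below all Bet+HMD libraries, with a log2 fold change of 0.23 and an adjusted P of 0.0885 by limma. Tet1 was 1.12, 1.28 and 0.97 FPKM in Con (0.26, adjusted P = 0.129). Under TPM and in the model of recovered reads both passed, which brought the count to 5 of 7 (71.4%). Over all genes 29.2% were called higher under TPM and 23.9% in that model. With quantile normalization Tet1 stood at -0.0022. Tet3 was 4.11, 3.14 and 3.70 FPKM in Con and overlapped Bet+HMD (0.06, adjusted P = 0.679). Mbd2 was 15.6, 16.3 and 14.6 FPKM in Con, all above Bet+HMD, with -0.15 and an adjusted P of 0.182 by limma, and turned positive under TPM (0.064) and quantile normalization (0.00073).

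**Figure D3:**
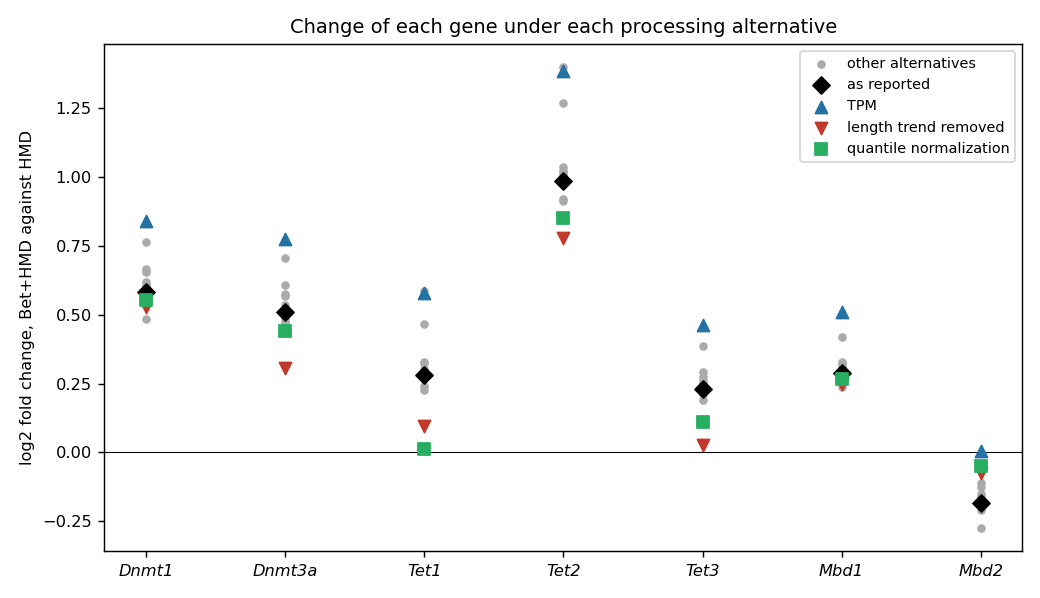
Log2 fold change of the 7 tested genes between Bet+HMD and HMD (vertical axis) as reported (diamonds), under TPM, with the length trend removed, with quantile normalization, and under the other alternatives including each library left out (grey). Tet2, Dnmt1, Dnmt3a and Mbd1 stay above 0 throughout, while Tet1 and Tet3 reach 0.01 and 0.03 at their lowest.

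Ratios of 2 genes within a library do not depend on how libraries are scaled, apart from length and kind of RNA. These pairs were chosen after the values were seen and carry no test. The ratio of Tet2 to Tet3 was 0.56, 0.63 and 0.46 in Con and 0.58, 0.63 and 0.68 in HMD. In Bet+HMD it was 1.23, 1.20 and 1.41. Tet3 was thus above Tet2 in all 6 libraries without betaine and below it in the 3 with betaine, and the gene lengths behind FPKM, 16870 and 16695 bases, are alike. The Tet2 share of the summed Tet level went from 29.4% in Con and 32.0% in HMD to 47.6% in Bet+HMD, and that of Tet3 was 53.9%, 50.4% and 37.4%.

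The ratio of Dnmt3a to Dnmt1 overlapped among all groups: Con ran from 0.63 to 0.73, HMD from 0.65 to 1.03 and Bet+HMD from 0.73 to 0.81. Both writers were therefore higher in Bet+HMD while the ranges of their proportion overlapped. The summed level of the 3 writers was 9.33 ± 0.45 FPKM in Con, 8.91 ± 0.36 in HMD and 14.1 ± 0.87 in Bet+HMD, and that of the Tet enzymes was 6.77 ± 0.67, 6.18 ± 0.39 and 10.3 ± 0.76. The ratio of Dnmt1 to Mbd2 was 0.33 to 0.38 in Con, 0.30 to 0.33 in HMD and 0.52 to 0.62 in Bet+HMD. Mbd1 to Mbd2 ran from 0.34 to 0.44 over Con and HMD and from 0.49 to 0.59 in Bet+HMD.

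**Figure D4:**
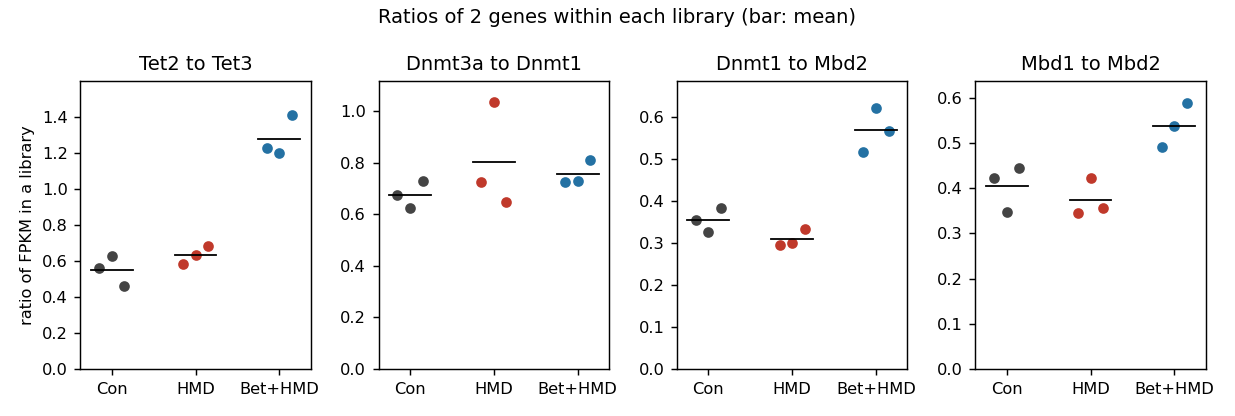
Ratio of the FPKM of 2 genes within each library of the later table (points) and the group mean (bar), with axes from 0. Tet2 to Tet3 lies between 0.46 and 0.68 in Con and HMD and between 1.20 and 1.41 in Bet+HMD, whereas Dnmt3a to Dnmt1 overlaps among groups.

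Dnmt3b and Uhrf1 lay under the filter of a mean of 1 FPKM and were not part of the fit. Dnmt3b had 10, 19 and 9 reads in Con, 6, 5 and 12 in HMD and 25, 31 and 23 in Bet+HMD, or 0.147 ± 0.072, 0.090 ± 0.042 and 0.295 ± 0.044 FPKM, a ratio of 3.27 between the means of Bet+HMD and HMD. Bet+HMD was higher than both other groups in every library. The exact permutation test of the mean gave P = 0.1 against HMD and against Con (two-sided), which is the smallest value that 3 against 3 allows. Without the filter, Dnmt3b differed from HMD by 0.25 on the log2 scale with an adjusted P of 0.0254 by limma, and from Con by 0.18 (adjusted P = 0.129).

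Uhrf1 had 16, 9 and 21 reads in Con, 13, 4 and 7 in HMD and 16, 8 and 13 in Bet+HMD. These counts overlap between all groups. The exact permutation test gave P = 0.3 for Bet+HMD against HMD and P = 0.5 against Con, and in the earlier table P = 0.2 for HMD against Con. Uhrf1 serves maintenance methylation behind the replication fork, and the 8 dividing-cell markers summed to 5.50 to 6.79 FPKM in Con, 5.14 to 6.14 in HMD and 4.30 to 5.35 in Bet+HMD. In the same order, Mcm6 among them had means of 3.62, 3.07 and 2.67 FPKM, and Mki67 0.35, 0.30 and 0.47.

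A list of 78 further genes of methylation turnover was examined for context. In HMD against Con, 64 could be tested and 0 were called (smallest adjusted P = 0.980 by limma, 1 at an unadjusted P under 0.05). The 2 smallest P values upwards were of Mat2a, which makes S-adenosylmethionine (32.1 ± 1.07 FPKM in Con and 38.6 ± 3.87 in HMD), and of Idh3g, a subunit of mitochondrial isocitrate dehydrogenase (29.8 ± 1.15 and 34.9 ± 1.94). Downwards they were of Gadd45b, linked to active demethylation (8.87 ± 0.65 and 6.40 ± 1.29), and of the chromatin remodeller Chd3 (89.8 ± 23.8 and 65.6 ± 3.24).

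In Bet+HMD against HMD, 65 of the 78 were tested, of which 21 rose (32.3%, against 22.8% of all genes), 14 fell (21.5%, against 25.5%) and 30 did not pass. Their median log2 fold change was 0.16, against -0.03 over all genes. Under TPM 33 were higher (50.8%, against 32.9% of all genes) and 9 lower (13.8%, against 1974 of 13672 genes). Of 11 tested genes of base excision and deamination, 5 rose and 2 fell. Xrcc1, a scaffold of single-strand break repair, rose from 1.70 ± 0.21 to 4.55 ± 0.28 FPKM (log2 fold change 1.04), and the glycosylase Neil1 from 1.80 ± 0.47 to 4.73 ± 0.45 FPKM (1.04). The stress genes Gadd45g, from 14.4 ± 2.01 to 4.14 ± 0.21 FPKM (-1.57), and Gadd45b, from 6.44 ± 1.35 to 3.61 ± 0.57 FPKM (-0.68), fell, the latter losing its call with the length trend removed (adjusted P = 0.0560).

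Of 12 genes listed under further readers, not all of which bind methylated CpG, 5 rose and 2 fell. Mbd6, named like Mbd1 and Mbd2 for a methyl-CpG binding domain, had the largest rise of the list, from 3.22 ± 0.51 to 16.5 ± 1.11 FPKM (log2 fold change 2.06, SE 0.10, adjusted P = 3.37e-05 by limma). Zfp57, which binds methylated imprinting control regions, went from 0.74 ± 0.15 to 2.47 ± 0.19 FPKM (0.99), whereas its co-repressor Trim28 fell from 32.3 ± 2.98 to 19.8 ± 1.36 FPKM (-0.68). Zfp57 passed the filter of 1 FPKM only through its level in Bet+HMD, so its call and its place among the genes that rose are descriptions. Of the 6 methyl donor genes, 0 rose and 3 fell, and Ahcy, which clears S-adenosylhomocysteine, went from 8.05 ± 1.15 to 4.72 ± 0.33 FPKM (-0.66). Of 9 tested partners of the Tet enzymes 1 rose and 3 fell, of 7 further writers and partners 2 rose and 2 fell, and of 20 partners of the readers 8 rose and 2 fell. Over all genes tested 22.8% rose and 25.5% fell, and with so few genes in a role these counts are descriptions, several of them near those shares.

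Against Con, 16 genes of the list rose (24.6%, against 19.4% of all genes) and 10 fell (15.4%, against 20.4%), with a median of 0.09. Under TPM 30 were higher (46.2%, against 29.2% of all genes) and 9 lower (13.8%, against 1432 of 13643 genes). The lead over all genes was lost without Bet+HMD replicate 3, where 7 rose and 9 fell (10.8% higher, against 12.4% of all genes). It narrowed without Bet+HMD replicate 2, where 9 rose and 10 fell (13.8%, against 12.6%). It stayed without Bet+HMD replicate 1 (18.5%, against 12.8%). The same held without Con replicate 1 (23.1%, against 17.2%), 2 (31.25%, against 19.7%) or 3 (29.2%, against 22.1%). With the replicate block 10 rose and 10 fell (15.4%, against 14.7%). The 4 with the largest rise were Mbd6 (1.94), Neil1 (0.99), Zfp57 (0.98) and Ogt (0.92), the last a glycosyltransferase that binds Tet proteins. Zfp57 lay at 0.77 FPKM in Con, so here too it passed the filter only through Bet+HMD. The largest falls were of Gadd45g (-1.71), Gadd45b (-1.14), Idh1 (-0.70), which makes the co-substrate of Tet enzymes, and Trim28 (-0.61). All of these 8 genes had an adjusted P between 0.000469 and 0.00674 by limma.

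**Figure D5:**
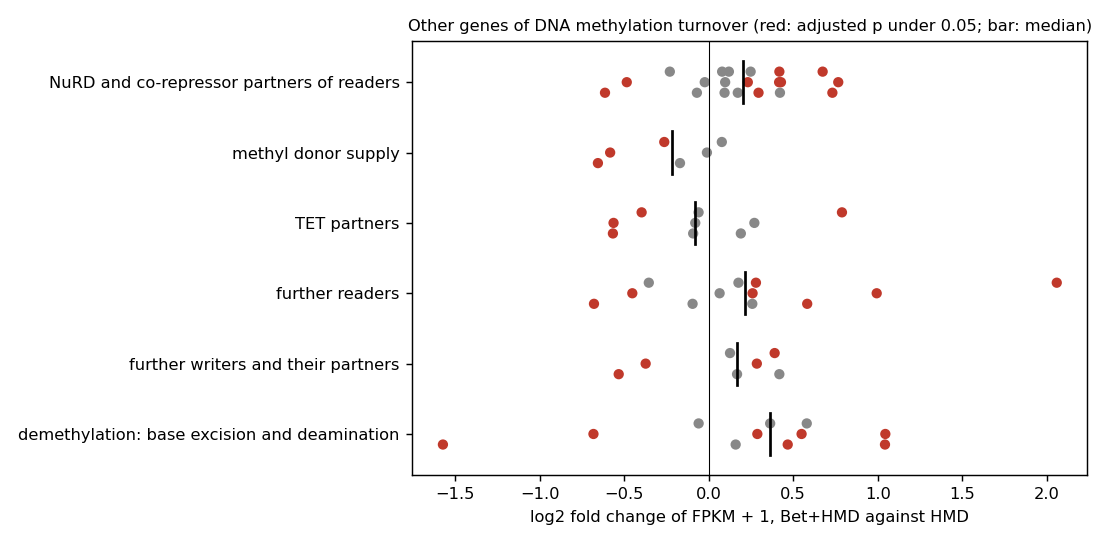
Log2 fold change between Bet+HMD and HMD of the 65 tested genes of the list (horizontal axis), by the function they were listed under, where red marks an adjusted P under 0.05 and the bar is the median. Mbd6 lies farthest right at 2.06 and Gadd45g farthest left at -1.57.

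Genes whose levels ran most like the members were sought by Pearson's r of log2(FPKM + 1) over the 9 libraries of the later table, among 13464 genes. For Dnmt1, the highest writer, they were Agbl5 (r = 0.992), Gm11611 (0.990) and Tmem8 (0.987). For Tet3 they were Eif4e2 (0.975), Pip4k2b (0.971) and Tcf20 (0.943), and for Mbd2 Cacng4 (0.946), Mrps2 (0.941) and Sod3 (0.936). All points share the split between Bet+HMD and the other libraries, so these coefficients are descriptions only.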

How the data were processed

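RNA of 9 mouse hippocampi was sequenced after ribosomal RNA depletion. Per the submitters' processing notes, reads were aligned to mm10 with HISAT2 2.1.0 and counted with featureCounts 1.5.0-p3; use of the strand is not given in the sources used here. The authors deposited FPKM in 2 tables, with gene length in bases (another unit), which were used as they are. Columns headed COL were read as Con, which is inferred. Whole reads were recovered from FPKM and length within 0.05 of a whole number, so depth was known; 3 reads were treated as the floor, and precision covers counting error only.

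Tests were made within a table: the earlier one served for HMD and Con, and the later one for Bet+HMD with either group. As FPKM are not counts, limma 3.58.1 (R 4.3.3) with an intensity trend took the place of the study's count-based test and was run on log2(FPKM + 1) of 2 groups at a time, over genes with a mean of at least 1 FPKM; limma voom on the recovered reads was an alternative. A fold change on this scale understates the change of low genes. P values were two-sided and adjusted over all genes tested; an adjusted P under 0.05 was called. Exact permutation tests used scipy 1.17.1. The fits were tested on simulated data. Members, lists and tests were chosen with earlier results of these data known. Named genes were all members, the 4 called list genes with the largest change per direction (or, with none called, the 2 with the smallest P), and the 3 closest patterns per role. Same-numbered replicates were not treated as pairs in the main fits, and a fit with replicate number as a block was an alternative. All Y-linked genes listed were expressed in every group, as labelled male.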

Additional observations from a re-analysis of the deposited data

How the results depend on the processing

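Alternatives were a pseudocount of 0.1, no filter, a filter at 5 FPKM, TPM, quantile normalization, median centring, removal of the length trend, no intensity trend, all 3 groups in one fit, voom on recovered reads, the replicate block, the other table for the diet comparison, and each library left out. Between HMD and Con, the count of called members and of called list genes was 0 in all of them. Signs of values near 0 turned there: Dnmt3a to -0.0035 with the length trend removed, and Tet2 to 0.0072 under TPM and 0.0012 with quantile normalization. With a library left out Dnmt3a ran from -0.013 to 0.090, Tet1 from -0.092 to 0.017, Tet2 from -0.084 to 0.065 and Mbd2 from -0.015 to 0.12. Turned values without one library were -0.013 and -0.011 (Dnmt3a), 0.0015 and 0.017 (Tet1), 0.059 and 0.065 (Tet2), and -0.015 and -0.0031 (Mbd2).

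Between Bet+HMD and HMD, the filter at 5 FPKM left 2 called members in place of 4, since fewer genes were tested, and Mbd2 turned to 0.0051 under TPM. With a library left out, 3 to 6 members were called, the 6 being 5 higher and 1 lower. In those fits 16.8% to 24.2% of all genes were called higher. Between Bet+HMD and Con, 1 member was called with that filter in place of 3, and 5 under TPM and under voom. Over all genes 14.2% were called higher with that filter, 29.2% under TPM and 23.9% under voom. Tet1 turned to -0.0022 and Tet3 to -0.035 with quantile normalization, Tet3 to -0.19 with the length trend removed and to -0.023 without the second Con library (range over left-out libraries -0.023 to 0.13), and Mbd2 to 0.064 under TPM and 0.00073 with quantile normalization; the cause was not tested. With a library left out, 16 to 32 list genes were called, beside 3302 to 6269 of all genes tested. Same-numbered samples were correlated by -0.18 to 0.35, the highest being 0.35 and 0.32 for replicates 2 and 3 of HMD and Con. Samples of unlike number were not compared, so pairing was not tested. With the replicate block 3 members were called in both Bet+HMD comparisons, and Mbd1 against HMD lost its call (adjusted P = 0.0552 by limma). Of all genes 19.9% were then called higher against HMD and 14.7% against Con. In HMD against Con the block took genes at an unadjusted P under 0.05 by limma from 592 to 1034, with 0 members called. Depth limits Dnmt3b and Uhrf1, with at most 31 reads in a library.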
